A study of Homo sapiens with 6 samples.

Results

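The NF-κB and Rel subunit genes are the 5 human genes, NFKB1, NFKB2, REL, RELA and RELB, whose proteins pair up to form the NF-κB transcription factors. They were taken by Ensembl identifier on the primary chromosomes, and all 5 were found among the 63677 genes of the deposited count table. RNA-Seq was performed on the cell line RPMI8226, established from a human multiple myeloma and labelled WT, after 6 hr with 100 nM GST or 100 nM GST-PTR1. GST, glutathione-S-transferase, is the fusion partner of the recombinant protein and so was present in both treatments, and PTR1 is a domain of HAPLN1, a protein of the extracellular matrix. Each treatment had 3 biological replicates of this single cell line. The comparison of GST-PTR1 with GST asked which transcripts of the myeloma cells change when the PTR1 domain is added.

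In a resting cell, NF-κB dimers are held in the cytoplasm by IκB proteins. A signal that activates the IKK kinases leads to destruction of the IκB proteins, and the freed dimers enter the nucleus and bind κB sites in DNA. RELA, REL and RELB carry a transactivation domain and are made in active form. NFKB1 encodes p105 and NFKB2 encodes p100, precursors that act as IκB proteins themselves and are shortened to the DNA-binding subunits p50 and p52. The canonical pathway works mainly through p50 with RELA or REL, and the non-canonical pathway works through the kinase NIK, processing of p100, and p52 with RELB. In myeloma, NF-κB activity is a known survival signal of the plasma cells. Several subunit genes and IκB genes are themselves known NF-κB targets. The values below are mRNA levels and do not measure protein, processing or nuclear entry.

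The deposited libraries held 15202503, 20077280 and 23453473 counts under GST and 22874133, 28837431 and 44688737 counts under GST-PTR1. Sets of 3 values below follow that order, from the smallest to the largest library of a treatment. All 8 plasma cell markers examined were detected, with a summed level of 1954 to 2443 CPM (counts scaled to a common library size) under GST and 2012 to 2208 CPM under GST-PTR1, and 3 of them rose (PRDM1, IRF4 and SLAMF7) while 3 fell (SDC1, TNFRSF17 and XBP1), where 9.15% of all genes tested were called higher and 11.4% lower. The fall of XBP1 kept its call in 10 of 14 alternatives of the test. Losses included those without the GST library of 23453473 counts (adjusted p = 0.0599 by edgeR) or without the GST-PTR1 library of 28837431 counts (adjusted p = 0.0833). The 3 B cell markers summed to 1.77 to 2.22 CPM under GST and 2.02 to 2.56 CPM under GST-PTR1, and the 3 T cell markers to 4.87 to 5.3 CPM and 2.97 to 3.46 CPM, almost all of it CD8A, with CD3D and CD3E each at or near 0 counts. CD8A was called lower (log2 fold change -0.70, edgeR adjusted p = 0.0132), and it kept that call in 12 of 14 alternatives of the test. Myeloid markers summed to at most 1.32 CPM and stromal markers to at most 0.522 CPM in any library, and DCN was at 0 counts in every library. The part of these marker differences in the results below was not tested. In bulk RNA, a change in the RNA of every cell and a change in how many cells make it cannot be told apart.

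For the genes whose promoter windows carry a κB match, the sequence around the match is shown first, because κB sites are the DNA that the subunit proteins bind. RefSeq promoter windows on GRCh38.p14 were given for 4 of the 5 genes, 8 windows in all, with no entry for RELB. The 250 bases before each start were searched on both strands for the κB consensus, by its name, and for its narrower spelling GGGANNTTCC, every match of which is also a match to the consensus. The starts of a gene are numbered as they are listed. Capitals mark the matched bases, positions count back from the start, and each sequence reads 5′ to 3′ on the gene's strand.
NFKB1, start 1, chr4:102501300-102501329, plus strand: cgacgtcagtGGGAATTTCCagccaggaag
NFKB2, start 2, chr10:102394461-102394490, plus strand: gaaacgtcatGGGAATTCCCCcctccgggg
NFKB2, start 3, chr10:102395455-102395704, plus strand: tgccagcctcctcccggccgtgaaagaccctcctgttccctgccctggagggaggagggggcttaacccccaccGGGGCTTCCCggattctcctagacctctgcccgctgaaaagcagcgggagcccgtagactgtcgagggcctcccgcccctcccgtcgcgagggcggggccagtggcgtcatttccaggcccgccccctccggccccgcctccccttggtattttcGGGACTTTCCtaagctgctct
REL, start 1, chr2:60881517-60881546, plus strand: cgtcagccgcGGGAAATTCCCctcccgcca

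The NFKB1 match began 49 bases before start 1, and the window of start 2 held none. NFKB2 had matches beginning at positions -107 and -106, which overlap, and at -78 before start 2, at -176 and -21 before start 3, and none before start 1. The match at -78 lies beyond the stretch shown for start 2. The REL match began 47 bases before its start and overlapped a match of the other strand at -46. RELA had no match in either of its windows. Its first window is shown as the case without a match.
RELA, start 1, chr11:65663858-65664107, minus strand: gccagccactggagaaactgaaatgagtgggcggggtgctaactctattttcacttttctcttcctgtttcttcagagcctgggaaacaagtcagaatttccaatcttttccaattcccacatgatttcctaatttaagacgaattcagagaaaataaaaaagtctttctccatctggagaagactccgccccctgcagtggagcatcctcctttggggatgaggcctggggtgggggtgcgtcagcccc

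Of all 35116 RefSeq promoter windows of this length, 3498 (10.0%) held at least 1 match to the consensus and 492 (1.4%) held GGGANNTTCC. At least 2 matched places were found in 1.72% of all windows and at least 3 in 0.31%, against 2 places in the third NFKB2 window, 3 in the second and 2 in the REL window, where overlapping matches that begin at different bases count as separate places. The spelled motif itself was in the NFKB1 window of start 1, the NFKB2 window of start 3 and the REL window. The windows with a match were 68.4% to 79.6% G and C. Those without one were 48.4% and 79.2% (RELA), 72.8% (NFKB1, start 2) and 58.4% (NFKB2, start 1). The shares over all windows were not matched for G and C. Of the 250 bases of the windows with a match, annotated exons covered 241 (NFKB1, start 1), 250 (NFKB2, start 2), 12 (NFKB2, start 3) and 53 (REL). Which starts these cells use was not tested. A match describes letters and not binding, and the absence of one says only that these letters are not in that window.

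**Figure D1:**
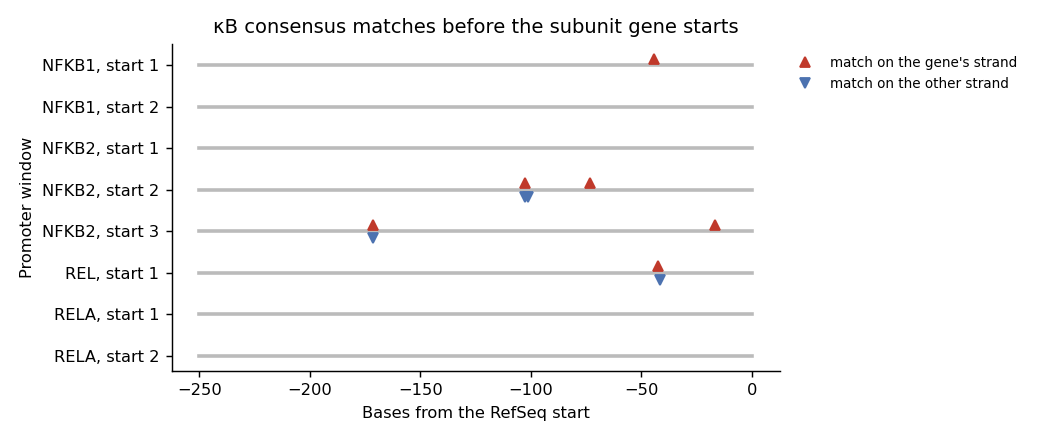
Matches to the κB consensus in the 250 bases before each RefSeq start of NFKB1, NFKB2, REL and RELA, with 1 grey line per window and bases from the start on the x axis. Upward triangles are matches on the gene's strand and downward triangles are matches on the other strand, and both windows of RELA are empty.

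In the test across all genes, all 5 subunit genes were called higher in the treated cells (edgeR quasi-likelihood test, Benjamini-Hochberg adjusted p below 0.05), against 9.15% of the 16926 genes tested that were called higher. RELB, NFKB2 and NFKB1 rose by 4.87-fold, 4.26-fold and 3.57-fold, and these 3 passed a 2-fold change as well, against 3.68% of all genes tested. REL rose by 1.58-fold and RELA by 1.27-fold. For each of the 5 genes, every treated library lay above every control library, against 19.2% of the genes tested. The median log2 fold change of the 5 was 1.84, and that of all genes tested was 0.00652 with a 5th to 95th percentile of -0.94 to 0.81. Without the GST library of 23453473 counts, or without the GST-PTR1 library of 28837431 counts, 3 of the 5 were called. Over all genes 1549 were higher and 1937 (11.4%) lower. With library totals in place of TMM scaling the split was 927 higher and 3795 lower and the median of all genes moved to -0.19. Taken relative to the median of all genes, the log2 fold changes of the 5 subunit genes were 1.83 (NFKB1), 2.09 (NFKB2), 0.65 (REL), 0.34 (RELA) and 2.28 (RELB) under library totals. The test under library totals was run on the changes not taken relative to the median, and there REL and RELA were not called.

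**Figure D2:**
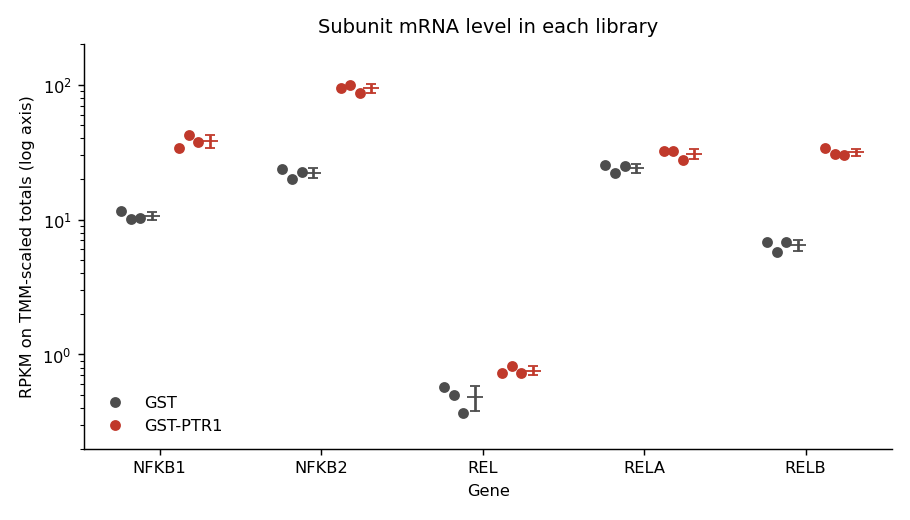
mRNA level of each subunit gene as RPKM (on TMM-scaled totals, log axis) in the 3 GST libraries (grey points) and the 3 GST-PTR1 libraries (red points), with mean ± SD beside them. NFKB1, NFKB2 and RELB are higher under GST-PTR1 by several-fold, while REL and RELA move by less than 2-fold.

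NFKB2, the p100 precursor of p52, lies on chromosome 10 (104153867 to 104162281 on GRCh37, plus strand), and its 23 merged exons cover 4479 bases. Its level was 23.6, 20.0 and 22.6 RPKM (CPM on TMM-scaled totals, divided by exon length in kilobases) under GST and 95.1, 99.8 and 86.8 RPKM under GST-PTR1. Every treated library lay far above every control library. The log2 fold change was 2.09 ± 0.11 (SE; 95% interval 1.84 to 2.34, n = 3 per treatment, edgeR adjusted p = 3.69e-07). NFKB2 stood at rank 249 of the 16926 log2 fold changes counted from the highest. Among the levels of genes tested it moved from percentile 84.4 under GST to 95.8 under GST-PTR1.

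RELB, the transactivating partner of p52, lies on chromosome 19 (45504688 to 45541452 on GRCh37, plus strand) with 12 merged exons of 3031 bases. Its level was 6.8, 5.75 and 6.86 RPKM under GST and 33.9, 30.6 and 30.0 RPKM under GST-PTR1. The 3 treated libraries were close together and well above the controls. RELB had the largest change of the 5 genes, with a log2 fold change of 2.28 ± 0.11 (SE; 95% interval 2.03 to 2.54, edgeR adjusted p = 2.15e-07) and rank 224 of 16926. Its interval overlapped those of NFKB2 and NFKB1. Under GST its level stood at percentile 59.9 of the genes tested, and under GST-PTR1 at 87.4.

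NFKB1, the p105 precursor of p50, is the longest of the loci, with 116.0 kb on chromosome 4 (103422486 to 103538459 on GRCh37, plus strand) and 28 merged exons of 6257 bases. Its level was 11.5, 10.1 and 10.3 RPKM under GST and 33.9, 42.2 and 37.7 RPKM under GST-PTR1. The treated libraries were again all above the controls, with a wider spread among themselves than the controls had (coefficient of variation 10.9% against 7.48%). The log2 fold change was 1.84 ± 0.12 (SE; 95% interval 1.58 to 2.09, edgeR adjusted p = 1.21e-06). NFKB1 moved from percentile 71.2 of the levels to percentile 89.4.

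RELA encodes p65, the transactivating subunit of the most common NF-κB dimer, and lies on the minus strand of chromosome 11 (65421067 to 65430565 on GRCh37) with 7 merged exons of 5464 bases. Its level was 25.3, 22.0 and 25.0 RPKM under GST and 32.2, 32.1 and 27.6 RPKM under GST-PTR1. The treated libraries lay above the controls, but the lowest treated library came within a few RPKM of the highest control. The log2 fold change was 0.35 ± 0.11 (SE; 95% interval 0.11 to 0.58, edgeR adjusted p = 0.0444). This call was lost without the GST library of 20077280 (log2 fold change 0.29, adjusted p = 0.116) or 23453473 counts (0.37, adjusted p = 0.0958), without the GST-PTR1 library of 22874133 (0.31, adjusted p = 0.116) or 28837431 counts (0.32, adjusted p = 0.148), and under library totals (0.15, adjusted p = 0.4). The 95% intervals of NFKB1, NFKB2 and RELB all lay above that of RELA.

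REL encodes c-Rel, best known from lymphoid cells, and lies on chromosome 2 (61108656 to 61158745 on GRCh37, plus strand). Its 11 merged exons cover 11255 bases, of which 5702 (50.7%) are shared on the same strand with the gene ENSG00000267520. Reads that fell on both genes were left out of the counts, and that second gene had 0 counts in every library. REL gave 108, 120 and 104 counts under GST and 182, 253 and 323 counts under GST-PTR1, the fewest of the 5 genes. Its level was 0.577, 0.505 and 0.371 RPKM under GST and 0.726, 0.824 and 0.728 RPKM under GST-PTR1. Over the 5553 exon bases that could be counted, the level was 0.981 ± 0.212 RPKM (SD, n = 3) under GST and 1.54 ± 0.113 RPKM under GST-PTR1. The treated libraries lay above the controls on either length, and the controls spread widely, with a coefficient of variation of 21.6%, where counting alone gives 9.81% at the lowest count. The log2 fold change was 0.66 ± 0.18 (SE; 95% interval 0.27 to 1.05, edgeR adjusted p = 0.0245). The call was lost without the GST library of 23453473 counts (0.49, adjusted p = 0.0963), without the GST-PTR1 library of 28837431 counts (0.60, adjusted p = 0.0873) and under library totals (0.46, adjusted p = 0.0894).

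On the length-scaled RPKM level the order of the 5 mRNAs differed between treatments. Under GST, RELA (24.1 ± 1.83 RPKM, SD, n = 3) and NFKB2 (22.1 ± 1.85 RPKM) were highest and overlapped each other. NFKB1 (10.6 ± 0.796 RPKM) came next, then RELB (6.47 ± 0.622 RPKM) and, well below, REL (0.484 ± 0.105 RPKM), with no overlap between these neighbours. Under GST-PTR1, NFKB2 stood alone at the top with 93.9 ± 6.61 RPKM. NFKB1 (37.9 ± 4.15 RPKM), RELB (31.5 ± 2.13 RPKM) and RELA (30.6 ± 2.64 RPKM) followed, each overlapping the next in the order, and REL was again lowest at 0.759 ± 0.0557 RPKM. The order was the same when the countable length of REL was used.

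Added together, the subunit mRNAs amounted to 67.8, 58.3 and 65.1 RPKM under GST and 196, 205 and 183 RPKM under GST-PTR1. The sum with GST-PTR1 was 3.06 times that with GST (63.7 ± 4.87 against 195 ± 11.4 RPKM, SD, n = 3; two-sided exact permutation test, p = 0.1). With 3 libraries against 3 this is the smallest p the test can give, and the same limit holds for each share and ratio below.

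The make-up of this sum also differed, a measure that does not depend on how libraries are scaled to each other. RELA made up 37.3%, 37.7% and 38.4% of the summed RPKM under GST and 16.4%, 15.6% and 15.1% under GST-PTR1. NFKB2 made up 34.8%, 34.3% and 34.7% under GST and 48.6%, 48.6% and 47.5% under GST-PTR1. The share of RELA was thus lower in every treated library while its own level was not, and the share of NFKB2 was higher in every treated library.

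RELB contributed 10.1% ± 0.347 (SD, n = 3) of the sum under GST and 16.2% ± 1.23 under GST-PTR1, without overlap. NFKB1 contributed 16.7% ± 0.818 and 19.5% ± 1.9, and here the lowest treated library and the highest control library were both at 17.3%, 0.00612 percentage points apart. REL contributed 0.762% ± 0.167 and 0.39% ± 0.0168, or 1.53% ± 0.334 and 0.787% ± 0.0337 over its countable length. Each of the 5 shares had an exact permutation p of 0.1, also 0.1 after Benjamini-Hochberg adjustment over the 5.

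Grouped by type of protein, the precursor genes NFKB1 and NFKB2 made up 51.3% ± 0.699 (SD, n = 3) of the sum under GST and 67.7% ± 1.66 under GST-PTR1, and REL, RELA and RELB together made up the rest. Grouped by pathway, the pair NFKB2 and RELB of the non-canonical dimer made up 44.8%, 44.2% and 45.3% under GST and 65.9%, 63.5% and 63.9% under GST-PTR1. NFKB1, REL and RELA made up 55.2% ± 0.566 and 35.6% ± 1.3. Within this group the mean shares of RELA and REL were lower under GST-PTR1, while that of NFKB1 was higher (16.7% under GST, 19.5% under GST-PTR1). The larger part of the pool was therefore NFKB1, REL and RELA in all GST libraries and NFKB2 and RELB in all GST-PTR1 libraries. These are shares of mRNA, and NFKB2 mRNA encodes the p100 precursor, so they do not measure the dimers or the activity of either pathway.

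**Figure D3:**
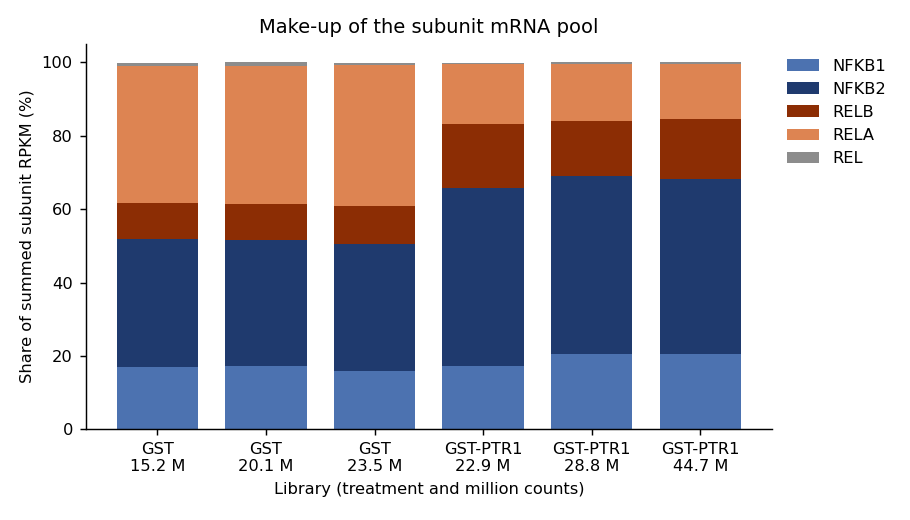
Share of each subunit gene in the summed subunit RPKM (y axis, percent) in each of the 6 libraries (x axis, labelled with treatment and library size), stacked to 100%. The RELA block is 37.3% to 38.4% of the bar under GST and 15.1% to 16.4% under GST-PTR1, and the NFKB2 and RELB blocks are larger under GST-PTR1.

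Ratios between pairs of subunit mRNAs were taken within each library, for all 10 pairs, and 9 did not overlap between treatments. The 10 pairs come from the same 5 genes and are not independent, and the share among pairs of other genes was not computed. Pairs of NFKB1, NFKB2 or RELB with REL or RELA largely restate the fold changes above. The clearest was RELA over RELB, with log2 ratios of 1.89, 1.93 and 1.87 under GST and -0.08, 0.07 and -0.12 under GST-PTR1. RELA mRNA was thus 3.73 times RELB mRNA on the RPKM scale in controls and 0.971 times RELB mRNA after treatment. For NFKB2 over RELA the log2 ratio was -0.10, -0.14 and -0.14 under GST and 1.56, 1.64 and 1.66 under GST-PTR1, so that NFKB2 mRNA went from 0.916 to 3.07 times RELA mRNA.

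NFKB1 over RELA moved in the same direction, from 0.441 to 1.24. The 3 genes with large changes differed less from each other. NFKB1 over NFKB2 was 0.483 under GST and 0.403 under GST-PTR1, NFKB1 over RELB was 1.65 and 1.2, and NFKB2 over RELB was 3.41 and 2.99, and in this last pair the nearest libraries of the treatments were only 0.0148 log2 units apart. REL over RELA overlapped between treatments (0.0198 and 0.0249; exact permutation p = 0.3, also after adjustment). The other 9 pairs had an exact permutation p of 0.1, adjusted to 0.111 over the 10 pairs.

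**Figure D4:**
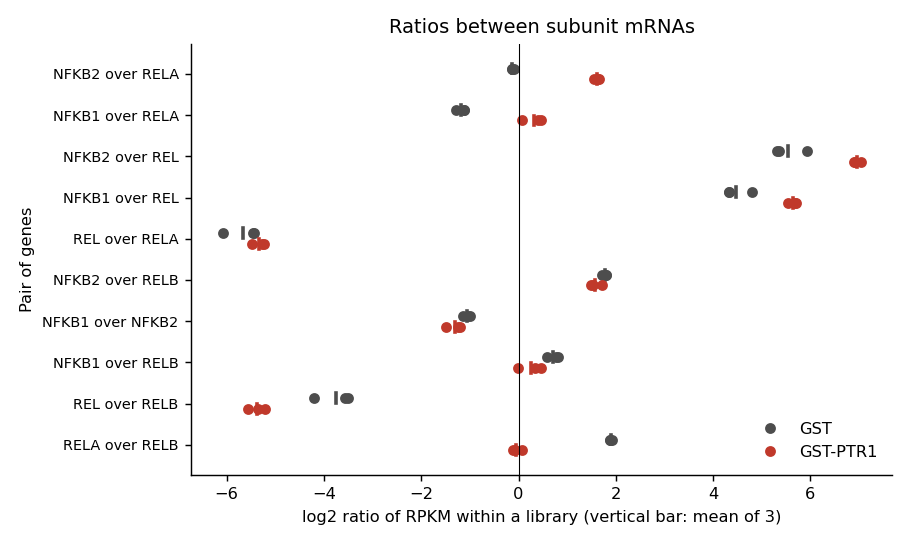
log2 ratio of RPKM for each of the 10 pairs of subunit genes (y axis) within each GST library (grey points) and GST-PTR1 library (red points), with a vertical bar at each mean of 3. RELA over RELB lies near 1.9 in GST libraries and near 0 in GST-PTR1 libraries, and only REL over RELA overlaps.

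All 6 IκB genes examined were higher with GST-PTR1, 4 of them by at least 2-fold, against 9.15% and 3.68% of all genes tested. The 6 include genes of nuclear IκB proteins as well as of those that hold dimers in the cytoplasm. The median log2 fold change of the 6 was 2.12, where that of all genes tested was 0.00652. NFKBIZ, a nuclear IκB protein, went from 17.9 ± 1.29 to 211 ± 24.4 CPM (SD, n = 3; log2 fold change 3.56 ± 0.13 SE, edgeR adjusted p = 2.26e-08). NFKBIA, which encodes IκBα, went from 61.0 ± 5.82 to 495 ± 30.8 CPM (3.02 ± 0.12, adjusted p = 3.39e-08). BCL3, a nuclear partner of p50 and p52 dimers, went from 8.96 ± 1.99 to 82.6 ± 11.4 CPM (3.21 ± 0.17, adjusted p = 3.44e-07), and NFKBIE, which encodes IκBε, from 22.3 ± 0.853 to 52.1 ± 1.34 CPM (1.23 ± 0.10, adjusted p = 1.01e-05). The log2 fold changes of NFKBIA, NFKBIZ and BCL3 were above that of every subunit gene, with intervals that did not overlap those of the subunits. NFKBIB was higher by 0.93 on the log2 scale. NFKBID, at 0.57 (adjusted p = 0.0409), lost its call without any 1 of 5 of the 6 libraries and under library totals, with adjusted p up to 0.167.

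Of the genes that control the IKK kinases and NIK, 7 of 8 were matched, and 4 of the 7 were higher, 2 by at least 2-fold, against 9.15% and 3.68% of all genes tested. The median log2 fold change of the 7 was 0.42. BIRC3, a ubiquitin ligase that acts with TRAF2 and TRAF3 to keep NIK low, went from 26.3 ± 2.91 to 400 ± 8.88 CPM (log2 fold change 3.92 ± 0.12 SE, edgeR adjusted p = 7.82e-09). TRAF3, which acts with BIRC3, went from 4.65 ± 0.897 to 9.34 ± 1.26 CPM (1.02 ± 0.18, adjusted p = 0.00276), and BIRC2, a close relative of BIRC3, from 39.6 ± 2.4 to 58.4 ± 5.01 CPM (0.56 ± 0.11, adjusted p = 0.00425). CHUK, which encodes IKKα, went from 36.1 ± 2.68 to 48.2 ± 1.88 CPM (0.42 ± 0.10, adjusted p = 0.0175). The CHUK call was lost without the GST library of 23453473 counts (adjusted p = 0.0613), without the GST-PTR1 library of 28837431 (adjusted p = 0.0584) or 44688737 counts (adjusted p = 0.0507), and under library totals (adjusted p = 0.161). Counting all alternatives of the test, CHUK kept its call in 8 of 14. MAP3K14, which encodes NIK itself, IKBKB, which encodes IKKβ, and TRAF2 were not called.

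The components that tag IκB proteins and p100 for the proteasome, and the cofactors of nuclear NF-κB, did not pass the test. None of 5 SCF-βTrCP genes (BTRC, FBXW11, CUL1, SKP1, RBX1) was called by edgeR, DESeq2 or limma voom, and 0 had an unadjusted p under 0.05 in any of the 3 tools. Their log2 fold changes lay between -0.27 and 0.22 with a median of 0.19. Of 8 cofactors, 7 passed the filter on low counts, 0 were called by any of the 3 tools and 0 had an unadjusted p under 0.05, with log2 fold changes between -0.15 and 0.30 and a median of -0.09.

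The NFAT genes encode relatives with a Rel-type DNA-binding domain, and 4 of 5 passed the filter. NFATC2 was higher (from 2.75 ± 0.663 to 4.77 ± 0.555 CPM, SD, n = 3; log2 fold change 0.79 ± 0.21 SE, edgeR adjusted p = 0.0232). That is 1 of the 4, against 9.15% of all genes tested, and none of the 4 was called lower by edgeR. NFATC3 was the only one with an unadjusted p under 0.05 in the lower direction, by each of the 3 tools, with a log2 fold change of -0.29 (edgeR adjusted p = 0.0745). The median of the 4 was 0.29. The NFATC2 call was lost without the GST library of 20077280 counts (adjusted p = 0.0712), without the GST-PTR1 library of 28837431 counts (adjusted p = 0.0825) and under library totals (adjusted p = 0.0598).

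**Figure D5:**
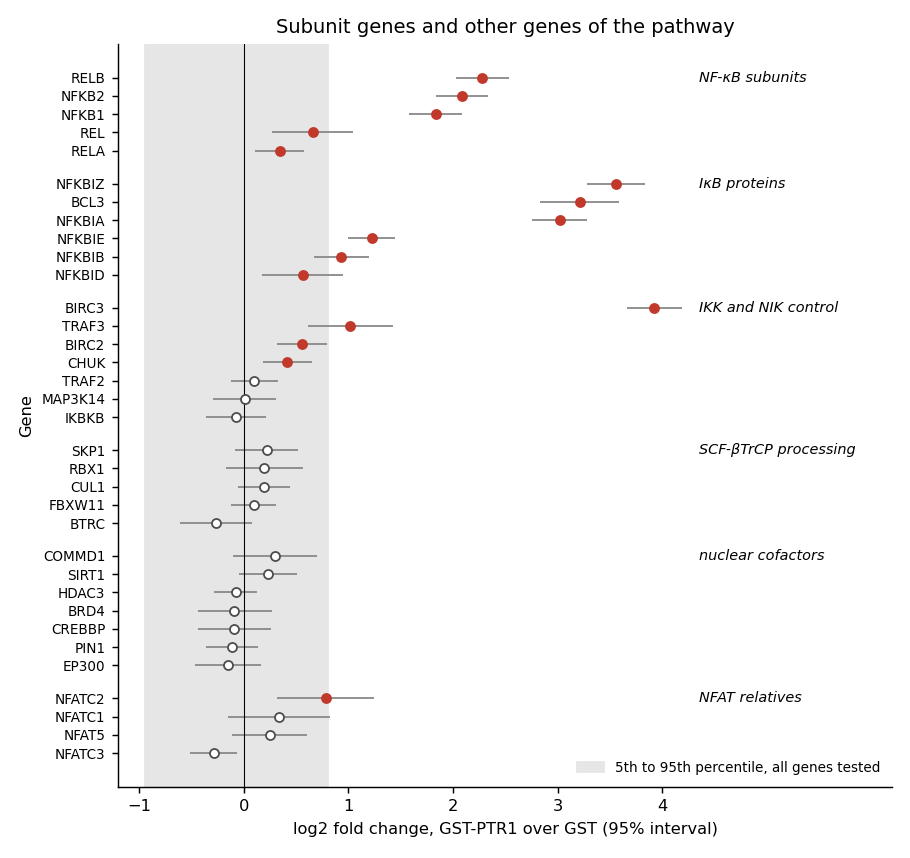
log2 fold change of GST-PTR1 over GST with its 95% interval (x axis) for the subunit genes and for the tested genes of 5 further lists (y axis), where filled red points passed an adjusted p under 0.05 and open points did not. The grey band runs from the 5th to the 95th percentile of all genes tested, -0.94 to 0.81, and NFKB1, NFKB2 and RELB lie to its right while REL and RELA lie inside it.

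The change at the subunit loci was compared with the nearest tested gene on each side. Of these 10 neighbours, 8 were not called, 1 was higher and 1 was lower, which is near the 9.15% higher and 11.4% lower among all genes tested and so is no result about the neighbours as a group. FBXL15, which starts on the same strand beyond the end of NFKB2 with a gap of 16.7 kb, went from 6.04 ± 0.56 to 12.2 ± 1.75 CPM (SD, n = 3; log2 fold change 1.01 ± 0.16 SE, edgeR adjusted p = 0.0011). MANBA, 14.2 kb beyond the end of NFKB1 on the other strand, went from 10.3 ± 0.505 to 6.8 ± 1.0 CPM (-0.60 ± 0.15, adjusted p = 0.0174), a call lost without the GST library of 20077280 (adjusted p = 0.05) or 23453473 counts (adjusted p = 0.0679) or without the GST-PTR1 library of 22874133 counts (adjusted p = 0.0533). CLASRP, only 0.8 kb beyond RELB on the same strand, had a log2 fold change of 0.07 ± 0.15 SE (edgeR adjusted p = 0.773).

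The genes whose pattern over the 6 libraries was most like that of each subunit gene were found by the root mean square difference of centred log2 CPM, among 13360 genes with a mean count of at least 50. Nearest to NFKB1 were RAB11FIP1 (0.058), TMEM64 (0.063) and CFLAR (0.069), and nearest to NFKB2 were ELOVL7 (0.065), PIM2 (0.075) and BMF (0.078). Nearest to RELB were ICAM1 (0.074), PLK3 (0.076) and WNT10A (0.083). REL was nearest to SEMA3C (0.079), TGFBR3 (0.083) and RAB24 (0.092), and RELA to EIF1 (0.021), YBX3 (0.021) and TMEM106A (0.024). Among the subunits themselves NFKB2 and RELB were closest, at 0.119, and RELA and RELB farthest apart, at 0.970. Other genes lay nearer, since RELB was at place 9 among the genes nearest NFKB2 and NFKB2 at place 10 for RELB. For REL, the nearest subunit, RELA, was at place 785. All these values share the same 6 libraries and the same treatments.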

How the data were processed

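RNA-Seq libraries from RPMI8226 cells (3 GST, 3 GST-PTR1) were prepared by the authors from total RNA with a strand-specific TruSeq mRNA kit. The deposited values are whole-number counts of reads per gene, made by the authors with featureCounts 1.5.0-p1 on the reverse strand with the Ensembl release 75 annotation (hg19, GRCh37), and the exon length of each gene. The labels also name FastQC, Subread and limma. The aligner's role and settings are not given in the sources used here. Reads on exons of several genes of the same strand were not counted, which touches REL. Columns could be matched to a treatment but not to a replicate number, and 0 columns were unmatched. The smallest chi-square per gene between libraries of a treatment was 8.35, and each of the 6 was used as its own sample.

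From the deposited counts, treatments were compared with edgeR 4.0.16 under R 4.3.3 (filterByExpr, TMM factors of 0.883 to 1.1, glmQLFit, glmQLFTest) and Benjamini-Hochberg adjustment over 16926 genes, with an adjusted p under 0.05 as threshold. The fit was tested on simulated data. CPM and RPKM used TMM-scaled totals, and RPKM the deposited lengths. Single values per library were compared by two-sided exact permutation tests over libraries. Alternatives were DESeq2 1.42.0, limma 3.58.1 (voom), DESeq2 size factors, library totals, 2 other filters, countable lengths and each library left out. Symbols were matched for 52181 of 63677 identifiers, and IKBKG was not matched. The 5 subunit genes are given in full, up to 4 genes per list by adjusted p, and the markers and neighbours that were called. CLASRP was chosen after its value was seen. The members, lists and tests were chosen with earlier results of these data known. Sequences are RefSeq's, on GRCh38.p14, and were used for no count. Windows with more than 30 bases in annotated exons are shown as stretches of 30 bases. Protein sequences were not used here.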

Additional observations from a re-analysis of the deposited data

How the results depend on the processing

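NFKB1, NFKB2 and RELB were called higher under all 14 alternatives of the test, with log2 fold changes of 1.64 to 1.97, 1.90 to 2.16 and 2.09 to 2.33. REL was called in 11 of 14 and RELA in 7 of 14, with log2 fold changes of 0.46 to 0.84 and 0.15 to 0.43 that kept their direction, and adjusted p (edgeR, DESeq2 or limma voom) of up to 0.0963 and 0.4. Under library totals, REL (0.46) and RELA (0.15) were not called, 3 of the 5 subunit genes were called higher, and of the NFAT genes 0 were called higher and 1 lower. With each library left out in turn, the log2 fold change was 0.49 to 0.80 for REL and 0.29 to 0.43 for RELA, the number of subunit genes called higher was 3 to 5, and that of NFAT genes was 0 to 1. The NFAT gene called lower under library totals was NFATC3 (adjusted p = 0.00985 by edgeR). With a filter of 1 count in any library, 1 NFAT gene was called lower, and it was not NFATC3 (adjusted p = 0.174 by edgeR). NFATC4, which the main filter left out, had only 9, 5 and 3 counts under GST and 1, 0 and 1 under GST-PTR1. Of 641 alternative values in all, 0 were reversed, 34 values of single genes lost the call, 1 gained it, and 10 counts moved by more than 1.5 times or to or from 0. The other 596 include counts that moved by less, such as 4 subunit genes called higher in place of 5 where RELA alone lost its call, and shares and ratios, for which only the direction was compared. The causes were not tested.

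The column names carry numbers that are not the replicate numbers of the samples, and only 4 libraries share such a number across treatments. Their deviations from the treatment means correlated at -0.0276 and 0.253, and those of pairs without a shared number at -0.469 to 0.365. With so few libraries, this cannot tell whether libraries with the same number were paired. In these 4 libraries, chosen after seeing the data for the fit without the block, RELA was not called with the replicate block (0.34, adjusted p = 0.105 by edgeR) or without it (0.34, adjusted p = 0.0768), and 2 NFAT genes were called higher with the block and 2 without. With the block 1603 genes were higher and 1715 lower, and without it 1790 and 1848.

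The low counts of REL (104 to 323) limit its precision, intervals cover the spread between these 3 replicates of 1 cell line at 1 dose and 1 time, and with 3 libraries against 3 no share or ratio can reach p below 0.1.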
